A study of Mus musculus with 16 samples.

Results

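The 10 genes described here encode the transporters that carry bile acids, and the phospholipid that accompanies them, across the membranes of the mouse hepatocyte. They were chosen by name: Slc10a1, Slco1a1, Slco1a4 and Slco1b2 for uptake, Abcb11, Abcb4, Abcc2 and Atp8b1 for the canalicular membrane, and Abcc3 and Abcc4 for efflux back into blood. Each was found on the array through the transcript accession of its probe, and 10 of 10 passed the filter on dim signal, among 25790 features tested, of which 15247 carried a RefSeq gene name. Liver RNA of 16 male ApoE KO mice was measured, in which the gene for apolipoprotein E is deleted, a background that raises plasma cholesterol. All 16 mice ate a high-fat diet and had a stated age of 8 weeks, and livers were taken after 8 weeks. The 8 miR-185-inh mice received a lentivirus encoding an antisense inhibitor of the microRNA miR-185, and the 8 controls a treatment labelled ctrl-inh, which is not described further. The labels do not name the promoter of the vector or the liver cells it reached, and the level of miR-185 itself was not analysed here. RNA was labelled with Cy3 and hybridised to 1-colour Agilent arrays, 1 mouse an array.

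Bile acids circulate between intestine and liver. On the blood-facing (basolateral) membrane of the hepatocyte, the sodium-dependent transporter Slc10a1 (NTCP) and organic anion transporters of the Slco family take them up. On the canalicular membrane, Abcb11 (the bile salt export pump) and Abcc2 (MRP2) export them into bile, Abcb4 (MDR2) supplies phosphatidylcholine, and the flippase Atp8b1 (FIC1) keeps the lipid asymmetry of that membrane. Abcc3 (MRP3) and Abcc4 (MRP4) form a basolateral escape route that is known to be raised when bile flow is blocked. Transcription of several of these genes is controlled by FXR (gene Nr1h4) and by the receptors CAR and PXR. A transcript level gives neither the amount of protein nor its place in the membrane.

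Levels are log2 signals relative to the 75th percentile of the same array, so 0 stands for a spot as bright as that percentile, and each value describes 1 probe and is not set against that of another gene. The share of spots well above background ran from 58.7% to 74.8% over the arrays, and arrays correlated with each other at 0.984 to 0.996. All ctrl-inh arrays were on slide 1, read in scan 1, and all miR-185-inh arrays on slide 2, read in scan 2. Effects of the treatment, the slide and the scan therefore cannot be told apart. Each slide carried its arrays in 2 rows of 4, with the lower mouse numbers in row 1. Row 1 of ctrl-inh stood apart, with 68.6% to 74.8% of spots well above background against 58.7% to 64.2% in row 2, while the miR-185-inh rows ran from 62.5% to 67.1% and from 60.7% to 62.3%. Row and mouse number cannot be told apart either. Nothing in the labels says that mice of a group were housed or injected separately, and the p-values reflect only how these 16 animals varied. The 10 hepatocyte markers were all detected, with a summed linear signal of 354.6 to 492.6 times the 75th percentile in ctrl-inh and of 329.2 to 437.4 in miR-185-inh.

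Promoters are shown so that the motifs counted in the next paragraph can be seen in place. They belong to the main uptake and export genes (Slc10a1 and Abcb11) and to Abcc2 and Slco1a4. Abcc2 and Slco1a4 varied most closely together in miR-185-inh mice, under the 75th percentile scaling. The 250 bases before the start site are printed 5′ to 3′ on the gene's strand, from RefSeq on GRCm38.p6, for Abcc2 at chr19:43782058-43782307 on the plus strand, Slco1a4 at chr6:141856221-141856470 on the minus strand, Slc10a1 (the outermost start) at chr12:80968706-80968955 on the minus strand and Abcb11 at chr2:69342617-69342866 on the minus strand. Capitals mark the matches.
Abcc2: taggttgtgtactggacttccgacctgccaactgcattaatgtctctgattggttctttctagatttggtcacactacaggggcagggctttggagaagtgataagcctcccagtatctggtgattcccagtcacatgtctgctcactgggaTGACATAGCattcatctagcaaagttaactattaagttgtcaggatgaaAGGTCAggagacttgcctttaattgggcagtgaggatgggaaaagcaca
Slco1a4: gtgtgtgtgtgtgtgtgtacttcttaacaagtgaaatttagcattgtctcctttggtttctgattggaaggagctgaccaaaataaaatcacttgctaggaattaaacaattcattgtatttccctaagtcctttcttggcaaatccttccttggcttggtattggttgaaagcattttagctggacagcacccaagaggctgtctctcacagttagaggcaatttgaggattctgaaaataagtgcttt
Slc10a1: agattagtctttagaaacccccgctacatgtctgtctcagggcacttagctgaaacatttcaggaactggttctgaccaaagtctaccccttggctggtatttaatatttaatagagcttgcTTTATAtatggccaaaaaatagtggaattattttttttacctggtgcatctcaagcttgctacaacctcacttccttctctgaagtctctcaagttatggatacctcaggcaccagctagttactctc
Abcb11: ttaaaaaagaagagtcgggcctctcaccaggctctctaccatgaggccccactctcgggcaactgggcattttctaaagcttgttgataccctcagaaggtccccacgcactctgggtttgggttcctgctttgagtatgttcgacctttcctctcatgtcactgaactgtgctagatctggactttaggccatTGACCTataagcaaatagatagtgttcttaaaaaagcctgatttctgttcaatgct

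The nuclear receptor half-site AGGTCA, searched on both strands, occurred in 5 of the 10 promoter windows that RefSeq gave for 8 of the transporters, and in 16.3% of all 32851 promoter windows of the same 300-base length. In Abcc2 it began at position -49 relative to the start, in Abcb11 at -56 on the opposite strand, and the windows of Slco1b2, Slco1a1 and the inner start of Slc10a1 held it too. The core of the antioxidant response element, TGACNNNGC, occurred in 3 of the 10 windows, in Abcc2 at -98 and at both starts of Abcc4, against 12.4% of all windows. The TATA box letters TATAAA were found in 3 of 10 windows, those of Slco1b2, Slco1a1 and the outermost start of Slc10a1, against 13.6% of all. They began at -234 and -227 in Slco1b2. On the opposite strand they began at -209 and -99 in Slco1a1 and at -128 in Slc10a1. The FXR-type inverted repeat AGGTCANTGACCT, the direct repeat AGGTCANAGGTCA, the HNF1 motif GTTAATNATTAAC and the HNF4 motif CAAAGGTCA had no match in the 10 windows, and occurred in 0.00913%, 0.0396%, 0.00913% and 0.478% of all windows. AGGTCA lies within both repeats and within the HNF4 motif, so the searches overlap. Slco1a4 had no match to any of the 7 motifs, which says only that these letters were not in its window. Slco1b2, Slco1a4 and Slco1a1 lie in that order on chromosome 6, with the gene model Gm5724 between the first pair and the non-coding Gm30784 and Gm30843 between the second.

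None of the 10 transporters changed with miR-185 inhibition at an adjusted p under 0.05 (limma, Benjamini-Hochberg over all features), where 4.71% of all features did, 1.24% higher and 3.47% lower. At an unadjusted p under 0.05, 2 of 10 passed, Slc10a1 and Atp8b1, both lower, against 20.2% of all features (13.7% lower and 6.59% higher). The exact permutation test on each gene gave the same 2. The groups overlapped for all 10 genes, while they did not for 0.857% of features. By size, 1 of 10, Slc10a1, differed at least 1.2-fold, as 17.7% of features did, and none differed 1.5-fold, as 2.4% did. The median difference of the transporters was -0.03 log2 units, and that of all features -0.03. For 5 genes, Abcb11, Abcb4, Abcc2, Abcc3 and Slco1a1, the 95% interval lay within a 1.2-fold difference either way. For Abcc4 and Slco1a4 it reached past 1.5-fold, so these arrays did not bound their differences below that size.

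**Figure D1:**
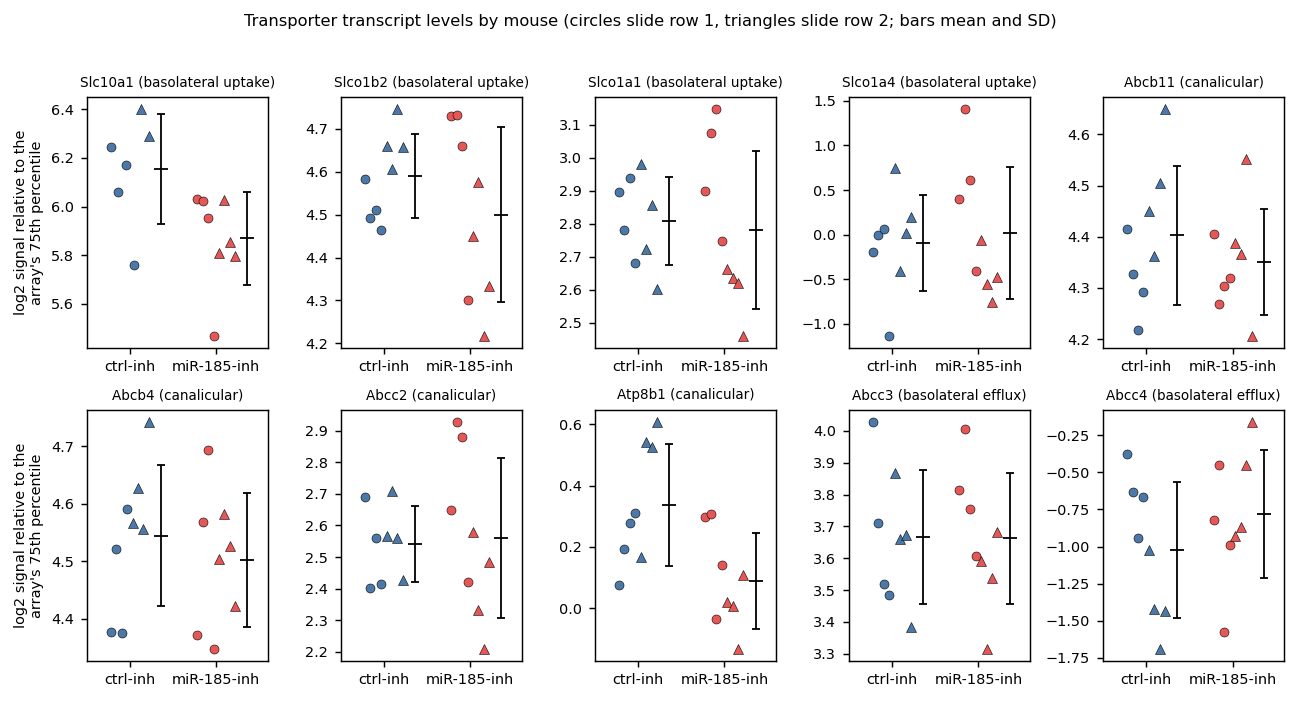
Level of each transporter in every mouse (vertical axis, log2 signal relative to the array's 75th percentile) in ctrl-inh (blue) and miR-185-inh (red) mice; circles are slide row 1, triangles slide row 2, and the bar gives the mean and SD. The groups overlap in all 10 panels, and the vertical scale differs between panels.

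Among the uptake genes, Slc10a1 had the largest difference of the 10. In ctrl-inh its level was lowest at 5.76 (mouse 4), had a median of 6.21 and was highest at 6.40 (mouse 8), over 6 mice, since the spots of mice 9 and 11 were marked as outliers and left out. In miR-185-inh it was lowest at 5.47 (mouse 7), had a median of 5.91 and was highest at 6.03 (mouse 1). All 8 miR-185-inh mice lay below the ctrl-inh mean, but only 1 lay below the lowest ctrl-inh mouse. The mean was below that of ctrl-inh, at 5.87 ± 0.19 (SD, n = 8) against 6.15 ± 0.22 (SD, n = 6). The difference was -0.28 (SE 0.11, 95% interval -0.52 to -0.05), which is 17.9% lower on the linear scale. It did not pass adjustment (limma adjusted p = 0.151), and the exact permutation test, 2-sided over 3003 assignments, gave p = 0.0266 before any adjustment.

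A second Slc10a1 probe, the dimmer of the pair and well above background on all 16 arrays, gave a smaller difference. Its level was 3.25 to 3.88 in ctrl-inh and 3.24 to 4.01 in miR-185-inh, with means of 3.61 ± 0.21 and 3.56 ± 0.29 (SD, n = 8 each). The difference was -0.05 with an exact permutation p of 0.694. With the marked spots kept, the brighter probe differed by -0.28 (exact permutation p = 0.00948, n = 8 each). Across mice the probes correlated at 0.471 in 6 ctrl-inh mice and 0.587 in 8 miR-185-inh mice.

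**Figure D2:**
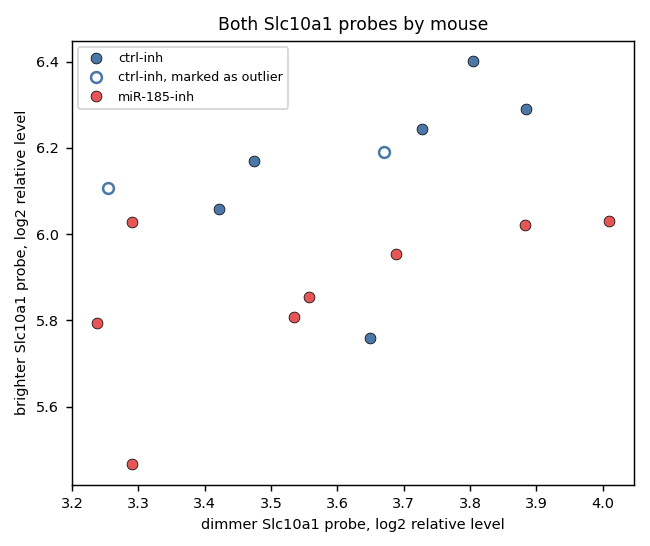
Level of the brighter Slc10a1 probe (vertical axis) against the dimmer one (horizontal axis), both as log2 signal relative to the array's 75th percentile, 1 point a mouse; open circles are the ctrl-inh spots marked as outliers. The miR-185-inh mice lie lower on the vertical axis (mean 5.87 against 6.15) and share most of the horizontal range with them (mean 3.56 against 3.61).

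The Slco transporters, which take up bile acids and other organic anions without sodium, differed little in their means. Slco1b2, the main liver member in mouse, ran from 4.46 (median 4.60) to 4.75 in ctrl-inh and from 4.22 (median 4.51) to 4.73 in miR-185-inh. Its difference was -0.09 (SE 0.08, limma adjusted p = 0.589), with 4 miR-185-inh mice below the lowest ctrl-inh mouse. Slco1a1, a male-predominant member of the family, ran from 2.60 (median 2.82) to 2.98 and from 2.46 (median 2.71) to 3.15, a difference of -0.03 (SE 0.10, adjusted p = 0.910). For Slco1a1 the miR-185-inh mice spread past both ends of the ctrl-inh range, with 1 below and 2 above it.

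Slco1a4, a family member inducible through CAR and PXR, varied most between mice. It ran from -1.14 (mouse 4) through a median of 0.01 to 0.74 (mouse 8) in ctrl-inh, a 3.69-fold range, and from -0.76 (mouse 10) through -0.23 to 1.41 (mouse 3) in miR-185-inh, a 4.51-fold range. Its spread within groups, 0.65 log2 units, was at the 97.4th percentile of all features. The groups overlapped, and the difference of 0.11 (SE 0.30, 95% interval -0.51 to 0.74, adjusted p = 0.875) was smaller than that spread. It turned to -0.04 without ctrl-inh mouse 4 and to -0.09 without miR-185-inh mouse 3.

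At the canalicular membrane, Abcb11 and Abcb4 were among the steadier genes, with spreads at percentiles 13.4 and 13.1 of all features. Abcb11 ran from 4.22 (median 4.39) to 4.65 in ctrl-inh and from 4.21 (median 4.34) to 4.55 in miR-185-inh, with a difference of -0.05 (SE 0.07, adjusted p = 0.720). Abcb4 ran from 4.38 (median 4.56) to 4.74 and from 4.35 (median 4.52) to 4.69, with a difference of -0.04 (SE 0.07, adjusted p = 0.778). Both groups covered nearly the same levels. Abcc2, which exports bilirubin glucuronides and conjugated bile acids, ran from 2.40 (median 2.56) to 2.71 in ctrl-inh. In miR-185-inh it ran from 2.21 (median 2.53) to 2.93, with 2 mice above and 2 below every ctrl-inh mouse. Its difference of 0.02 (SE 0.10, adjusted p = 0.939) lay between means of 2.54 ± 0.12 and 2.56 ± 0.25 (SD, n = 8 each).

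Atp8b1 was the other gene lower before adjustment. Its level ran from 0.07 (mouse 1) through a median of 0.30 to 0.61 (mouse 12) in ctrl-inh and from -0.14 (mouse 10) through 0.06 to 0.31 (mouse 3) in miR-185-inh. All 8 miR-185-inh mice lay below the ctrl-inh mean of 0.34 ± 0.20 (SD, n = 8), and 4 lay below its lowest mouse. The difference of -0.25 (SE 0.09, 95% interval -0.44 to -0.06), 15.9% lower, had an adjusted p of 0.121 (limma) and an exact permutation p of 0.0165 before adjustment. A probe level cannot tell fewer cells of a type from less RNA in each cell, here or for any gene below.

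The efflux genes split. Abcc3 had the same mean in both groups, 3.67 ± 0.21 and 3.66 ± 0.21 (SD, n = 8 each), with ranges of 3.39 to 4.03 and 3.31 to 4.01 and a difference of -0.003 (SE 0.10, adjusted p = 0.993). Abcc4 ran from -1.69 (mouse 11) through a median of -0.98 to -0.38 (mouse 1) in ctrl-inh and from -1.57 (mouse 6) through -0.85 to -0.16 (mouse 12) in miR-185-inh. The ctrl-inh mean was exceeded by 7 of the 8 miR-185-inh mice, but the ranges overlapped almost wholly. The difference was 0.24 (SE 0.21, 95% interval -0.19 to 0.68, adjusted p = 0.552), and the spread within groups was at the 90.4th percentile of all features.

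**Figure D3:**
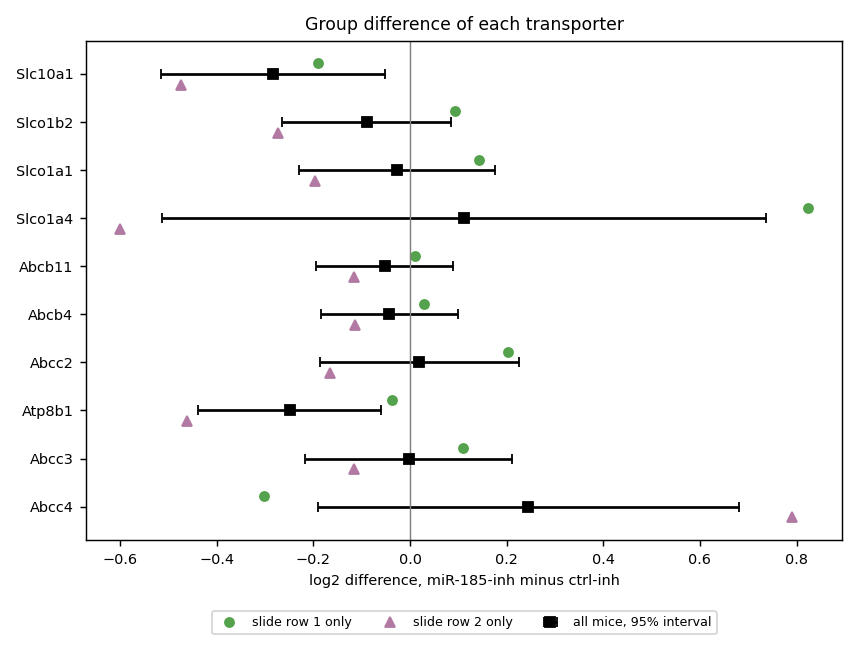
Difference between the group means of each transporter (horizontal axis, log2, miR-185-inh minus ctrl-inh; squares, with 95% intervals over all mice), and the same difference within slide row 1 (circles) and row 2 (triangles). The intervals of Slc10a1 and Atp8b1 lie below 0, and for 9 of the 10 genes the triangle is left of the circle, Abcc4 being the exception. The Slc10a1 triangle rests on ctrl-inh mice 8 and 12 only.

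Most of the small differences changed sign between the slide rows. In row 1 the estimate was above 0 for 7 of 10 genes, with a median of 0.06, and in row 2 for 1 of 10, Abcc4, with a median of -0.18. All features had medians of 0.01 and -0.07 in the rows. The signs were opposite in the rows for 8 of 10 transporters, and for 45.35% of all features. The row 2 estimate was the lower for 9 of 10 transporters and for 66.16% of all features. The difference between rows passed an unadjusted p under 0.05 for 6 of 10 transporters, against 14.8% of all features, and an adjusted one for none of them, against 0.372%. No transporter was called within row 1 or row 2 alone, where 0.0% and 1.81% of all features were. Slc10a1 and Atp8b1 kept their sign, with -0.19 and -0.47 for Slc10a1 and -0.04 and -0.46 for Atp8b1 in rows 1 and 2. The row 2 value of Slc10a1 rests on ctrl-inh mice 8 and 12 only (6.40 and 6.29). The marked spots of mice 9 and 11, also in row 2, read 6.11 and 6.19.

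Abcc4 and Slco1a4 had the largest gaps between rows, in opposite directions. Abcc4 differed by -0.30 in row 1 and 0.79 in row 2, a gap of 1.09 (SE 0.32, limma adjusted p = 0.126). Within ctrl-inh alone, Abcc4 was lower in row 2 than in row 1, by -0.74 log2 units (limma adjusted p = 0.0432), where 4.65% of all features differed after adjustment and 26.8% before it. Slco1a4 differed by 0.82 in row 1 and -0.60 in row 2, a gap of -1.42 (SE 0.49, limma adjusted p = 0.186). Its row means were -0.32 and 0.14 in ctrl-inh and 0.51 and -0.46 in miR-185-inh, so high and low rows changed places between groups.

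The group differences of markers of other liver cells also differed between the rows, though not for every list. All 8 endothelial markers were tested and had a median difference of -0.36 in row 1 (0 above 0) and 0.50 in row 2 (8 above 0). Their summed linear signal ran from 43.41 to 48.19 in ctrl-inh row 1, 26.29 to 36.2 in ctrl-inh row 2, 28.34 to 43.3 in miR-185-inh row 1 and 32.6 to 44.75 in miR-185-inh row 2. The 8 stellate cell and fibroblast markers had medians of -0.28 and 0.45, and summed signals of 14.85 to 21.5, 9.979 to 15.79, 11.35 to 18.74 and 15.84 to 22.56 in the same order. The 7 lymphocyte markers had medians of -0.60 (0 above 0) and 0.45 (5 above 0), and the 9 Kupffer cell markers -0.40 (0 above 0) and 0.09 (7 above 0). The 9 cholangiocyte markers had medians of -0.07 and -0.10, and the 9 neutrophil markers -1.25 and -0.66, with 0 above 0 in both rows. The 10 hepatocyte markers had medians of 0.06 (9 above 0) and -0.20 (0 above 0). In ctrl-inh mice Abcc4 correlated with the summed endothelial markers at r = 0.918 (exact permutation p = 0.000496, n = 8), or 0.868 without the 2 mice farthest from the median. Its adjusted p was 0.0677 over 140 relations of transporters and marker lists, and rho was 0.905 (adjusted permutation p = 0.300). In miR-185-inh mice r was 0.451. Both levels were lower in row 2 of ctrl-inh, and no r with the row means taken off was computed for this relation. Slco1b2 with the lymphocyte markers in miR-185-inh mice had the same adjusted p (r = -0.747, rho = -0.833). None of the 140 relations passed adjustment. The part of these cells in the row differences was not tested.

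Covariation across mice was measured for the 45 pairs of transporters in each group, 90 relations in all. In ctrl-inh 25 pairs were positive and 20 negative, with a median r of 0.167; in miR-185-inh 31 were positive and 14 negative, with a median of 0.351. The 6 pairs of uptake genes were positive in both groups, with medians of 0.53 and 0.74. In ctrl-inh the pairs with Slc10a1 rest on 6 mice. With the dimmer Slc10a1 probe, over 8 ctrl-inh mice, r was 0.017 with Slco1a1, 0.34 with Slco1a4 and 0.417 with Slco1b2. In miR-185-inh it was 0.73, 0.765 and 0.706. Under quantile normalization r turned to -0.188 for Slco1a4 with Slco1b2 in ctrl-inh and to -0.106 for Slc10a1 with Slco1a1 in miR-185-inh. Normexp background correction turned Slco1a1 with Slco1b2 in ctrl-inh to -0.16. Without the 2 farthest mice Slc10a1 with Slco1a1 in ctrl-inh was at -0.331 (n = 4). With row and column means taken off, Slc10a1 with Slco1a1 (-0.883), Slco1a1 with Slco1b2 (-0.802) and Slco1a4 with Slco1b2 (-0.052) were negative in ctrl-inh. The other uptake pairs then stayed positive in both groups, but that step leaves few free values from 6 or 8 mice. Of 16 pairs of an uptake and a canalicular gene, 9 were positive in ctrl-inh and 13 in miR-185-inh, with medians of 0.212 and 0.37. Pairs within the canalicular membrane were not alike, 3 positive and 3 negative in each group, and Abcc4 was negative with 7 of the other 9 genes in ctrl-inh and with 6 in miR-185-inh. Before adjustment 7 pairs in ctrl-inh and 9 in miR-185-inh passed a permutation p under 0.05, and 1 passed after adjustment over the 90.

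**Figure D4:**
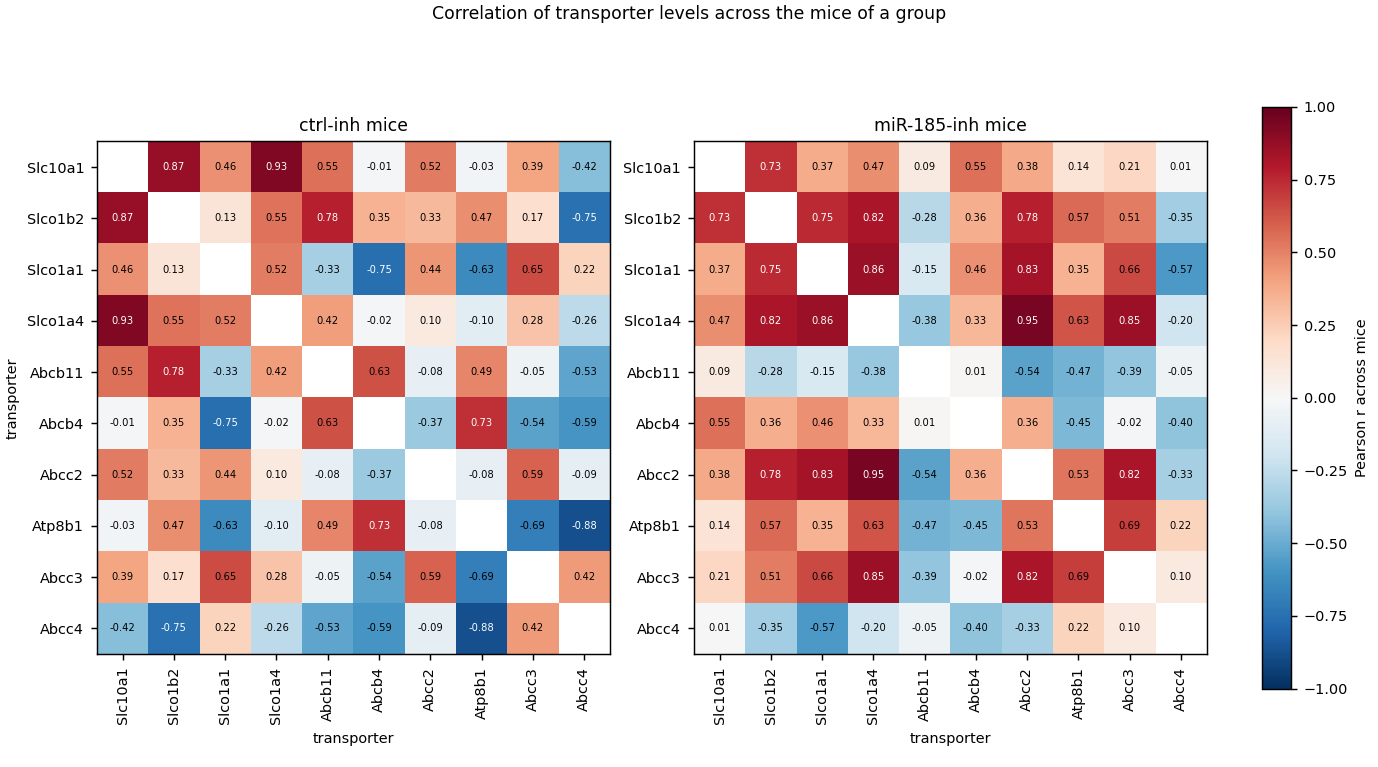
Pearson correlation of each pair of transporters across the mice of 1 group (colour and printed value), ctrl-inh on the left and miR-185-inh on the right, with genes on both axes in the order uptake, canalicular, efflux. The uptake genes in the upper left corner are positive with each other in both groups, and the pair of Abcc2 and Slco1a4 is at 0.95 in miR-185-inh and 0.10 in ctrl-inh. Values with Slc10a1 in ctrl-inh rest on 6 mice.

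That pair was Abcc2 and Slco1a4 in miR-185-inh mice. Its r was 0.949 (exact permutation p = 4.96e-05, adjusted p = 0.00446, n = 8) and its rho 0.976 (adjusted p = 0.0357, exact permutation). Mouse 3 was highest for both genes and mouse 10 lowest for both. Without mice 3 and 6, the farthest from the median of Abcc2, r was 0.917 (exact permutation p = 0.00972, n = 6), and with the row means taken off it was 0.904. In ctrl-inh mice r was 0.096 (exact permutation p = 0.841, n = 8), and the difference between the groups was not tested. Under quantile normalization r was 0.869 (exact permutation p = 0.00382). Abcc2 with Slco1b2 was then closer, at 0.88 (exact permutation p = 0.00256). Neither p was adjusted over the 90 relations, so the call is not shown to hold under that setting. Some genes followed each of the pair more closely still: of 15154 other named genes 38, or 0.251%, were closer to Abcc2 than Slco1a4 was, and 41, or 0.271%, were closer to Slco1a4 than Abcc2 was.

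**Figure D5:**
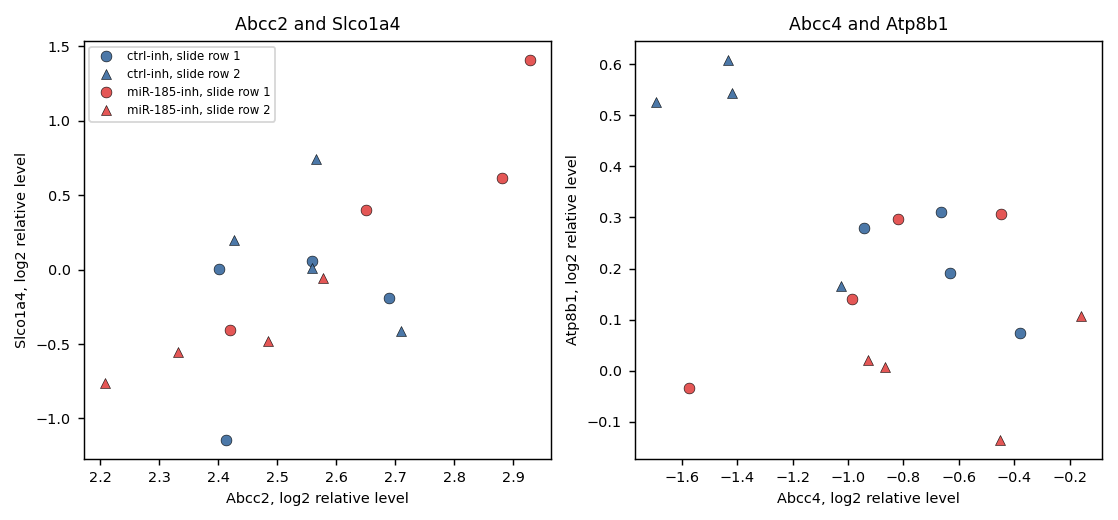
Slco1a4 against Abcc2 (left) and Atp8b1 against Abcc4 (right), each axis a log2 signal relative to the array's 75th percentile, 1 point a mouse, coloured by group (ctrl-inh blue, miR-185-inh red) with slide row as the marker. In the left panel the miR-185-inh mice lie along a line (r = 0.949), while in the right panel 3 ctrl-inh mice of row 2 stand apart from the other 5.

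No other pair passed adjustment. In miR-185-inh the next were Abcc3 and Slco1a4 (r = 0.855, exact permutation p = 0.00551, adjusted p = 0.139), Slco1a1 and Slco1a4 (r = 0.862, adjusted p = 0.139) and Abcc2 and Abcc3 (r = 0.819, adjusted p = 0.139). Their rho values were 0.857, 0.881 and 0.881, and with the row means taken off r was 0.721, 0.706 and 0.663. Without the 2 mice farthest from the median of the first gene they were 0.815, 0.722 and 0.693 (n = 6). Quantile normalization gave 0.621 (exact permutation p = 0.102), 0.872 and 0.749 in the same order. Slco1a4 was in 3 of the 4 leading pairs of that group. In ctrl-inh the leading pairs were Slc10a1 with Slco1b2 (r = 0.871, rho = 1.0, n = 6), Abcc4 with Atp8b1 (r = -0.877, rho = -0.762, n = 8), Slc10a1 with Slco1a4 (r = 0.927, rho = 0.829, n = 6) and Abcb11 with Slco1b2 (r = 0.779, rho = 0.833, n = 8). Their adjusted exact permutation p were 0.139, 0.139, 0.139 and 0.190. Quantile normalization lowered r to 0.215 for Slc10a1 with Slco1b2 and to 0.07 for Abcb11 with Slco1b2. Normexp background correction gave 0.367 and 0.87 for the same pairs. With the marked spots kept, r was 0.68 for Slc10a1 with Slco1b2 (exact permutation p = 0.0547) and 0.919 for Slc10a1 with Slco1a4 (n = 8 each). Without the 2 farthest mice r was 0.915 for Slc10a1 with Slco1b2 (n = 4), -0.818 for Abcc4 with Atp8b1 and 0.959 for Abcb11 with Slco1b2 (n = 6 each). The relation of Slc10a1 and Slco1a4 rested on mice 4 and 8, since r was 0.164 without them (n = 4). With the dimmer Slc10a1 probe, r was 0.417 with Slco1b2 and 0.34 with Slco1a4 in the 8 ctrl-inh mice. For Abcc4 and Atp8b1 the mice fell into separate clusters too small to test, and r was -0.799 with the row means taken off. The same step gave 0.814 for Slc10a1 with Slco1b2, 0.816 for Slc10a1 with Slco1a4 and 0.474 for Abcb11 with Slco1b2. Taking off row and column means gave 0.766, 0.246 and 0.892 for these pairs, and -0.99 for Abcc4 with Atp8b1. Of the miR-185-inh mice, mouse 3 was highest for 5 transporters, Abcc2, Abcc3, Slco1a4, Slco1b2 and Atp8b1, and mouse 10 lowest for 4, Abcc2, Slco1a4, Slco1b2 and Atp8b1.

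The genes whose levels followed each transporter most closely were found over the 16 mice with group means taken off, among 15146 named genes outside the 10, by Pearson r as a description. Abcb4 was closest to Klf3 (r = 0.920), Hnf4a (0.904), which encodes a central hepatocyte transcription factor, and Alkbh5 (0.893). Slco1b2 was closest to Mia2 (0.951), F9 (0.932), which encodes coagulation factor IX, and Hmgb1 (0.915). Abcc2 was closest to Ugp2 (0.925), Akr1c14 (0.917) and Eif2a (0.911), with r for Akr1c14 of 0.630 in ctrl-inh and 0.971 in miR-185-inh. Slco1a4 was closest to Bbox1 (0.881), Acadm (0.874), a fatty acid oxidation enzyme, and Akr1c13 (0.852). Slc10a1, over 14 mice, was closest to Wdr89 (0.917), Rps27a (0.916) and Prorsd1 (0.905), and Abcb11 to Rpl6 (0.910), Acat2 (0.896) and Ssrp1 (0.887). Abcc3 was closest to Ces1e (0.896), Slc22a27 (0.879) and Unc93a (0.865), and Abcc4 to Eml1 (0.898), Cbr3 (0.892) and Ddah2 (0.887). Slco1a1 was closest to Eri2 (0.930), Tarsl2 (0.918) and Jade1 (0.917), and Atp8b1 to Wdr37 (0.854), Gtpbp4 (0.838) and Slc25a45 (0.794). All points share the array's scaling.

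Around the transporters, called genes of the same pathways were counted beside the 4.71% of all features called, 1.24% higher and 3.47% lower. In lists of 15 or 17 genes, 1 called gene is near that share. Of 15 genes that bring canalicular transporters to the membrane or anchor them there, 1 rose and none fell. It was Tmem30a, which encodes the CDC50A subunit that P4-type flippases such as Atp8b1 need to leave the endoplasmic reticulum. Tmem30a ran from 2.15 (median 2.26) to 2.49 in ctrl-inh and from 2.38 (median 2.59) to 2.77 in miR-185-inh, with 6 of 8 miR-185-inh mice above every ctrl-inh mouse. It was 0.28 log2 units higher, or 1.21-fold (limma adjusted p = 0.0212, exact permutation p = 0.000622), with 0.34 in row 1 and 0.22 in row 2, neither called alone. The list had a median of 0.02 against -0.03 over all features.

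Of 17 tested bile acid synthesis and conjugation enzymes, 1 fell and none rose, with a list median of 0.02. The largest difference of the list was that of Cyp7a1, 0.71 log2 units higher (limma adjusted p = 0.136), which was not called. It was 0.64 under normexp and 0.70 under quantile normalization. Cyp46a1, a cholesterol 24-hydroxylase best known from brain, fell by 0.41 log2 units (limma adjusted p = 0.0374), but it was well above background on only 7 arrays of ctrl-inh and 3 of miR-185-inh, and it lost its call under normexp, quantile normalization and no filter. It was also lost without any 1 of ctrl-inh mice 2, 3, 4, 8, 11 and 12 or miR-185-inh mice 7, 8, 9, 10 and 12 (adjusted p up to 0.0747). Of 20 tested other transporters of sterols, bile acids and organic ions none was called, with a median of -0.03. The smallest p there belonged to Abcg8, of the canalicular sterol exporter (0.31, adjusted p = 0.200), Slc27a5, the bile acid CoA ligase (-0.17, adjusted p = 0.280), and Slc10a7 (-0.35, adjusted p = 0.314). Slc10a7 was well above background on only 6 arrays of ctrl-inh and 3 of miR-185-inh, and its difference was -0.07 under normexp and -0.14 under quantile normalization. At an unadjusted p under 0.05, 3 of 15 trafficking and anchoring genes, 4 of 17 enzymes and 1 of 20 other transporters passed. Of all features 20.2% did.

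Of 21 tested nuclear receptors and signals that regulate bile acid transport none was called, 3 passed before adjustment and the median was 0.075. Of all features 4.71% were called and 20.2% passed before adjustment. Foxo1, a forkhead factor under insulin control that the study's title names, was 0.29 higher (adjusted p = 0.0970). Mafg, a repressor downstream of FXR, was 0.19 higher (adjusted p = 0.0996), and Nr1h4, which encodes FXR, 0.21 higher (adjusted p = 0.116). Under normexp background correction Mafg (0.32, limma adjusted p = 0.0081) and Nr1h4 (0.33, limma adjusted p = 0.0199) were both called. Mafg turned to -0.01 when all its probes were averaged. None of 10 tested CAR and PXR targets, 13 NRF2 targets or 12 male-predominant liver genes was called or passed before adjustment, with medians of 0.001, -0.02 and -0.01. Their smallest p values belonged to Cyp3a13 (-0.13, adjusted p = 0.423), Gsta1 (-0.46, adjusted p = 0.414) and Nudt7 (-0.16, adjusted p = 0.425).

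Of the cell type lists, hepatocyte markers were below 0 in 10 of 10 and none was called, with a median of -0.07. Over all features 4.71% were called and 58.03% were below 0. The hepatocyte signs depended on the processing. Quantile normalization put Alb (0.10), Hpd (0.02), Ass1 (0.01), Ttr (0.0019) and Tat (0.0019) above 0. Serpina1a (-0.08), Cps1 (-0.07), Fah (-0.05), Apoa1 (-0.04) and Tdo2 (-0.01) stayed below it. Normexp put Cps1 (0.05), Ass1 (0.04), Alb (0.02) and Fah (0.02) above 0 and left the others below. Neutrophil markers were below 0 in 9 of 9 tested, with a median of -1.01, and 2 of them fell, Ltf and Ngp, which encode granule proteins. Ltf was well above background on only 3 miR-185-inh arrays, and Ngp (adjusted p = 0.0428) lost its call under normexp (0.0686), quantile normalization (0.0892), no filter (0.0573) and slide row and column as covariates (0.0553). Ngp also lost it without any 1 of ctrl-inh mice 2, 3, 4, 9, 11 and 12 or of miR-185-inh mice 3, 6, 7, 8, 9, 10 and 12 (adjusted p up to 0.0790). The neutrophil sum ran from 11.12 to 51.67 in ctrl-inh and from 7.551 to 49.15 in miR-185-inh. Of 8 stellate cell and fibroblast markers 1 rose, Hhip by 0.37 (limma adjusted p = 0.0275, or 0.0509 without miR-185-inh mouse 6), and none of 9 cholangiocyte, 9 Kupffer cell, 8 endothelial or 7 lymphocyte markers was called, with medians of -0.09, -0.15, 0.04 and -0.06. The part of these cells in the transporter levels was not tested.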

How the data were processed

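Per the file headers, the authors' scanner files came from Agilent Feature Extraction 11.5.1.1 (the submitters' processing notes name 9.1), with probe positions on mm9, and hold linear signal intensity per spot, already background-corrected. The authors' deposited value table holds the same arrays as log2 values minus a constant per array (SD of the difference at most 0.00692; column medians -1.30 to -1.22); the reason for the constant is not stated in the labels or headers. From the intensity, log2 minus each array's 75th percentile was taken, outlier-flagged spots were dropped, and probes well above background on at least 8 of 16 arrays were kept, with the brightest probe for each gene. Names came from RefSeq (GRCm38.p6) through transcript accessions: 26762 of 55681 probes matched.

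Groups were compared with limma 3.58.1 (R 4.3.3, lmFit and eBayes), with Benjamini-Hochberg adjustment over 25790 features. Single genes and correlations were also tested by exact 2-sided permutation over mice. The smallest p that 8 mice against 8 allow is 0.000155. Array number limits precision. The 10 transporters, the gene lists and the rule for naming genes were chosen with earlier results of these data known. All transporters are named, then every called gene of a pathway list or up to 3 with the smallest p, the 4 pairs of smallest p in each group, and 3 most alike genes for each transporter. Cyp7a1, the hepatocyte markers, and the cholangiocyte markers that passed only before adjustment, are named beyond that rule and were picked after seeing the data. Alternatives were background correction, scaling, probe filter, probe averaging, slide row and column, a block on mouse number, and leaving out each mouse; the row alone for correlations and the dimmer Slc10a1 probe were chosen after seeing the data.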

Additional observations from a re-analysis of the deposited data

Results flagged for a closer look

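Of 20 sets of mice tested (10 transporters in 2 groups), 1 held a mouse far from the rest: Slc10a1 in miR-185-inh mouse 7 was 5.466 (log2 relative signal), below the next lowest mouse at 5.80 by more than the limit for 8 samples. Chance alone marks about 1 in 20. Without that mouse the Slc10a1 difference was -0.23, and it was not called with or without it.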

How the results depend on the processing

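No transporter was called under any of the 28 alternatives, those that leave out 1 mouse included. The median of the 10 was -0.18 in slide row 2 alone. In row 1 alone Abcb11 (0.0112), Abcb4 (0.0288), Abcc3 (0.11), Abcc4 (-0.30), Slco1a1 (0.14) and Slco1b2 (0.094) changed sign, as did Slc27a5 (0.0085) and Nudt7 (0.0139). In row 2 alone Abcc2 (-0.16) and Slco1a4 (-0.60) did. Normexp background correction turned Abcc3 to 0.14 and Cyp3a13 to 0.0143, quantile normalization turned Abcc3 to 0.0068, and a percentile over detected probes turned Abcc2 to -0.006. Averaging probes turned Mafg to -0.0081 and Slc10a1 to 0.17, where ctrl-inh mice 9 and 11 then had only the dimmer probe. Leaving out 1 mouse gave -0.0331 to 0.0697 for Abcc2, -0.0521 to 0.0488 for Abcc3, -0.079 to 0.0194 for Slco1a1 and -0.0862 to 0.231 for Slco1a4, and, with no change of sign, 0.15 to 0.36 for Abcc4, -0.12 to -0.05 for Slco1b2, -0.08 to -0.02 for Abcb11 and -0.07 to -0.01 for Abcb4; the cause was not tested.

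The calls over all features were 320 higher and 895 lower (26.3% higher), but 47.9% higher under normexp, 46.4% under quantile normalization and 17.1% with the detected percentile; the median of all features was then -0.03, -0.0013 and -0.06. With the 5 shared mouse numbers as a replicate block no transporter was called (Slc10a1 -0.36, Atp8b1 -0.19) and the median was -0.04, and Tmem30a (0.27), Cyp46a1 (-0.34), Hhip, Ltf and Ngp were no longer called; same-numbered mice deviated together at -0.13 to 0.11, and only mouse 1 was closest to its own number, so the numbers were not taken as pairs.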
